A study of Mus musculus with 27 samples.

Results

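The transcripts described here are the 283 polyadenylated RNAs of mouse embryonic stem cells whose share of the sequenced reads was at least 2-fold lower with triptolide than without it at 3 h and again at 6 h of S phase. They were chosen by these same values. Rounded estimated read counts were scaled to CPM, the reads a transcript has in every 1000000 of its library. A member averaged at least 10 CPM in the 4 libraries and had a log2 ratio of CPM, triptolide over untreated, of -1 or less at each time. The files list 137271 transcripts, of which 10926 reached that mean. A fixed list of identifiers, 27 of them at that mean and 3 of these past both ratio limits, was left out, so that the 283 members come from 10899 eligible transcripts.

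The cells were of the KH2 line, an embryonic stem cell line built for doxycycline-inducible transgenes, with the genotype label KH2:13 Flag-BAP-H3 tags, so that every library, untreated ones included, comes from cells with tagged histone H3. All 4 groups were grown with LIF and with inhibitors of MEK1/2 (1 µM) and GSK3 (3 µM), held at the G1/S boundary by a double thymidine block and released. The groups were untreated cells at 3 h, cells with 1 µM triptolide at 3 h, untreated cells at 6 h and cells with 1 µM triptolide at 6 h. The time at which the drug was given is not in the labels, and the other 23 samples of the series, which hold chromatin, are not analysed here. Each group has 1 library, so no difference below has a replicate check and none has a p-value.

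Triptolide, a diterpenoid from a plant, acts on the XPB helicase of TFIIH, a general transcription factor, and so keeps RNA polymerase II from starting transcription. After such a block the level of an mRNA is set by how fast it is degraded, and mRNAs of short half-life are depleted first. Such mRNAs are known in many cell types to include those of early response genes, many transcription factors and other regulators that are renewed all the time. The files give transcripts by identifier only, and none of the identifiers (0 of 137271) is in the gene tables used here. The members are therefore described by their values and lengths, not by gene or function, and the identity of the cells was not checked against marker genes. How many genes the 283 transcripts come from was not determined, and transcripts of 1 gene share reads, so the members are not independent of each other. The members of 1326 nt and 1336 nt, for example, had identical estimated reads in every library, and both are counted.

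The shallowest library, triptolide at 6 h, had 19145129 reads and the deepest, untreated at 3 h, had 27443889. A count of 0 allows up to 3 reads, which is 0.109 CPM in the deepest library and 0.157 CPM in the shallowest. No member was at 0 in any library. The lowest count of a member was 230 and 192 reads in the untreated libraries at 3 h and 6 h, and 4 reads in each triptolide library. The values are shares of a library, with no spike-in to set their scale, so a loss common to all RNA is not seen in them, and fewer cells and less RNA per cell cannot be told apart.

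Untreated, the members were transcripts of middling level, and both treated libraries held much less of them. The median member was at 29.3 CPM untreated at 3 h and 29.5 CPM untreated at 6 h, against 11.05 CPM in the 3 h triptolide library and 5.54 CPM in the 6 h one. The 25th and 75th percentiles were 19.9 and 57.2 CPM in the untreated library at 3 h and again at 6 h. With triptolide they lay at 7.64 and 21.7 CPM at 3 h and at 3.08 and 11.4 CPM at 6 h. The 2 untreated distributions were nearly the same, and the treated ones lay below them and apart from each other. Over the 10899 eligible transcripts the medians in the same order of libraries (untreated and treated at 3 h, untreated and treated at 6 h) were 30.5, 28.5, 30.0 and 24.2 CPM. At 10 CPM or more were 282 and 281 members in the untreated libraries, 158 with triptolide at 3 h and 85 at 6 h. Under 1 CPM were 2 members with triptolide at 3 h and 9 at 6 h, and none untreated. The level of 10 CPM is also the rule's limit on the mean, so these counts follow largely from the choice of members. The matching counts over the eligible transcripts are not given here.

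**Figure D1:**
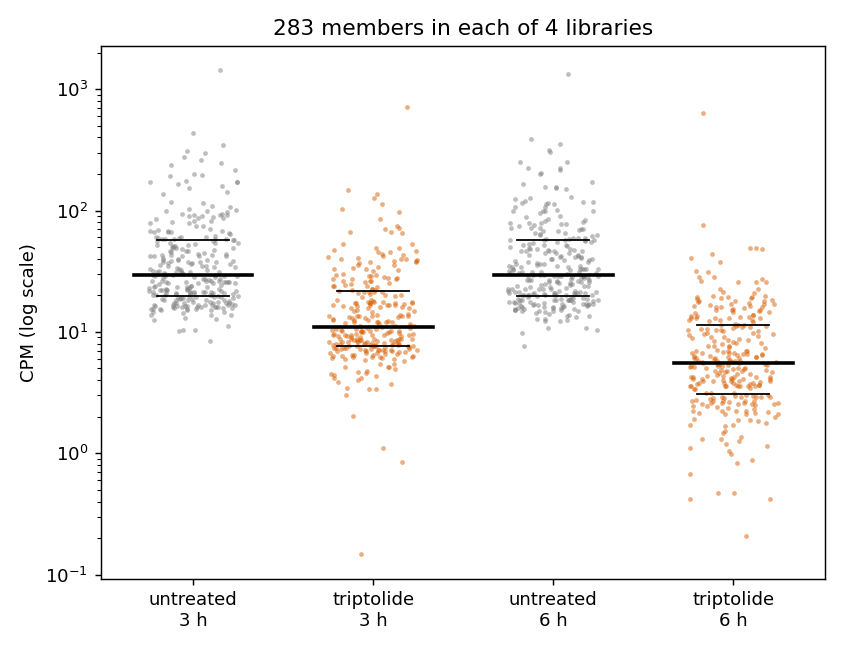
CPM of the 283 members (log axis) in the untreated (grey) and triptolide (orange) libraries at 3 h and 6 h; each point is a transcript, the thick bar is the median and the thin bars are the 25th and 75th percentiles. The medians are 29.3 and 29.5 CPM untreated and 11.05 and 5.54 CPM with triptolide.

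Summed, the members took 1.57% of the reads untreated and 0.598% with triptolide at 3 h, and 1.54% and 0.310% at 6 h. The sum was thus lower 2.62-fold at 3 h and 4.97-fold at 6 h. Exact binomial intervals of the shares, 0.595% to 0.601% and 0.307% to 0.312% in the treated libraries, cover counting error only. A single transcript weighed on the sums. The most read member held 9.15% and 8.66% of the members' reads untreated, 11.9% with triptolide at 3 h and 20.4% at 6 h. Without it the sum was lower 2.70-fold at 3 h and 5.70-fold at 6 h.

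At 3 h the members stood at a median of 41.5% of their untreated share, a log2 ratio of -1.27 (95% interval of the median over transcripts -1.35 to -1.24). At 6 h they stood at a median of 18.0%, a log2 ratio of -2.48 (interval -2.62 to -2.33). The intervals of medians give the precision of a median with transcripts taken as independent draws, and transcripts are not replicates. The median over all eligible transcripts was -0.03 at 3 h and -0.22 at 6 h. At least 2-fold lower were 3.04% of the eligible transcripts at 3 h, 21.3% at 6 h and 2.6% at both times. Because these ratios chose the members, their size is a description. The members were 85.5% of the 331 eligible transcripts past the limit at 3 h and 12.2% of the 2319 past it at 6 h.

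The limit cut through a dense part of the 3 h distribution. Within 0.1 inside the limit at 3 h lay 57 members, and within 0.1 outside it lay 104 transcripts that met the 6 h limit. The members just inside had 3 h log2 ratios of -1.0004, -1.0027 and -1.0069, and the nearest transcripts outside had -0.9988, -0.9988 and -0.9973. At 6 h the limit met few transcripts, with 7 members within 0.1 inside and 5 transcripts within 0.1 outside. The members nearest the 6 h limit had log2 ratios of -1.02, -1.03 and -1.06, and the nearest outside had -0.99, -0.95 and -0.92. The lowest mean CPM of a member was 10.02, and the highest mean of a transcript that met both ratio limits but not the level was 9.93 CPM. With counting error taken into account, 181 members (64.0%) had 95% intervals wholly beyond 2-fold at both times, against 1.66% of the eligible transcripts. Error in sharing out reads among transcripts is not in these intervals. At 3 h alone such an interval lay beyond 2-fold for 185 members (1.99% of eligible transcripts) and at 6 h alone for 272 (16.5%), so the 3 h value was the one most often within counting error of the limit.

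The size of the difference ranged widely. At 3 h, 25 members were at least 4-fold lower (0.321% of eligible transcripts). At 6 h, 205 members were at least 4-fold lower (5.23% of eligible transcripts), 83 at least 8-fold (1.14%) and 23 at least 16-fold (0.284%). The log2 ratio had a 25th percentile of -1.53 and a 75th of -1.13 at 3 h, and of -3.14 and -1.92 at 6 h. The spread was therefore wider at 6 h, by 1.22 against 0.40, where the 3 h values are compressed against the limit that chose them.

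Estimates that were whole numbers in all 4 libraries within 1e-06, as happens when a transcript shares no read with another, were found for 2 members (0.707%) and for 116 eligible transcripts (1.06%). These 2 members show no sign of split reads. ENSMUST00000060427.4 (1522 nt) was at 98.5 CPM in the untreated libraries at 3 h and at 6 h, at 22.7 CPM with triptolide at 3 h and at 12.5 CPM at 6 h. Its untreated values were equal to within 3 digits and both treated values lay far below them. Its share was lower 4.34-fold at 3 h (a log2 value of -2.12, counting interval -2.25 to -1.99) and 7.86-fold at 6 h (-2.97, interval -3.17 to -2.78). ENSMUST00000052631.7 (1621 nt) was at 21.02 and 20.03 CPM untreated at 3 h and 6 h, at 8.77 CPM with triptolide at 3 h and at 7.00 CPM at 6 h. Here too both treated libraries lay below both untreated ones. The share was lower 2.40-fold at 3 h (a log2 value of -1.26, interval -1.48 to -1.04) and 2.86-fold at 6 h (-1.52, interval -1.80 to -1.24). Its treated values were close to each other: the 6 h and 3 h log2 ratios differed by -0.26, with a counting interval of -0.61 to 0.09. For ENSMUST00000060427.4 the difference was -0.86 (interval -1.08 to -0.63). These intervals hold counting error only, and a difference in course between the 2 members was not tested.

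The other members are given by rank. Per length, the highest member had a mean of 783 TPM untreated, TPM being reads divided by effective length and scaled to 1000000 per library. This transcript of 2019 nt, the most read member, had 1434 and 1332 CPM untreated, at 3 h and 6 h, and 712 and 631 CPM with triptolide. It was lower 2.01-fold at 3 h and 2.11-fold at 6 h, and its counting interval at 3 h, -1.03 to -0.98, includes the limit. The second by TPM (565 TPM, 478 nt) was at 344 CPM untreated and 26.1 CPM treated at 3 h, and at 65.2 and 25.5 CPM at 6 h. Its treated values were alike and its untreated values were 5.28-fold apart. The third (257 TPM, 1847 nt) had 439 and 388 CPM untreated, and with the drug 149 and 44.0 CPM, lower 2.95-fold at 3 h and 8.81-fold at 6 h. It thus had steady untreated values and a treated value that was lower again at 6 h. The fourth (214 TPM, 636 nt) had 43.4 CPM untreated and 0.147 CPM treated at 3 h, the latter from 4 reads, and 171 and 18.6 CPM at 6 h. Its untreated values were 3.94-fold apart and its treated value was higher at 6 h than at 3 h. The fifth (201 TPM, 338 nt) was the shortest member, at 46.5 and 47.3 CPM untreated and 20.1 and 12.6 CPM treated.

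Ranked by the counting bound nearest to no change over both times, the first member (1152 nt) had 33.6 and 28.9 CPM untreated, and 1.10 and 0.418 CPM with triptolide. It was lower 30.5-fold at 3 h (a log2 value of -4.93, interval -5.51 to -4.41) and 69.2-fold at 6 h (-6.11, interval -7.33 to -5.13). The next (1189 nt) had 171 and 68.7 CPM untreated, and with the drug 9.25 and 3.45 CPM, 18.5-fold and 19.9-fold lower, with untreated values well apart. The third (2169 nt) had 16.4 and 24.9 CPM untreated, and with the drug 0.844 and 0.470 CPM. In the fourth (3158 nt) the values were 31.1 and 18.5 CPM untreated, and 2.02 and 1.25 CPM treated. The fifth is the 636 nt transcript described above. In 4 of these 5 the untreated libraries were over 1.5-fold apart, as in 33 members in all (11.7%). The matching share of eligible transcripts was not counted at 1.5-fold. Within 1.2-fold were 63.3% of members and 70.8% of eligible transcripts. The 10th and 90th percentiles of the untreated 6 h to 3 h log2 ratio were -0.47 and 0.41 in members. Over the eligible transcripts they were -0.35 and 0.32. ENSMUST00000060427.4, with 98.5 CPM in both untreated libraries, ranks 14 of 283 by the counting bound. The longest member, of 11982 nt, was at 92.4 and 78.3 CPM untreated, 37.9 CPM treated at 3 h and 2.72 CPM treated at 6 h. It was lower 2.44-fold at 3 h and 28.8-fold at 6 h.

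**Figure D2:**
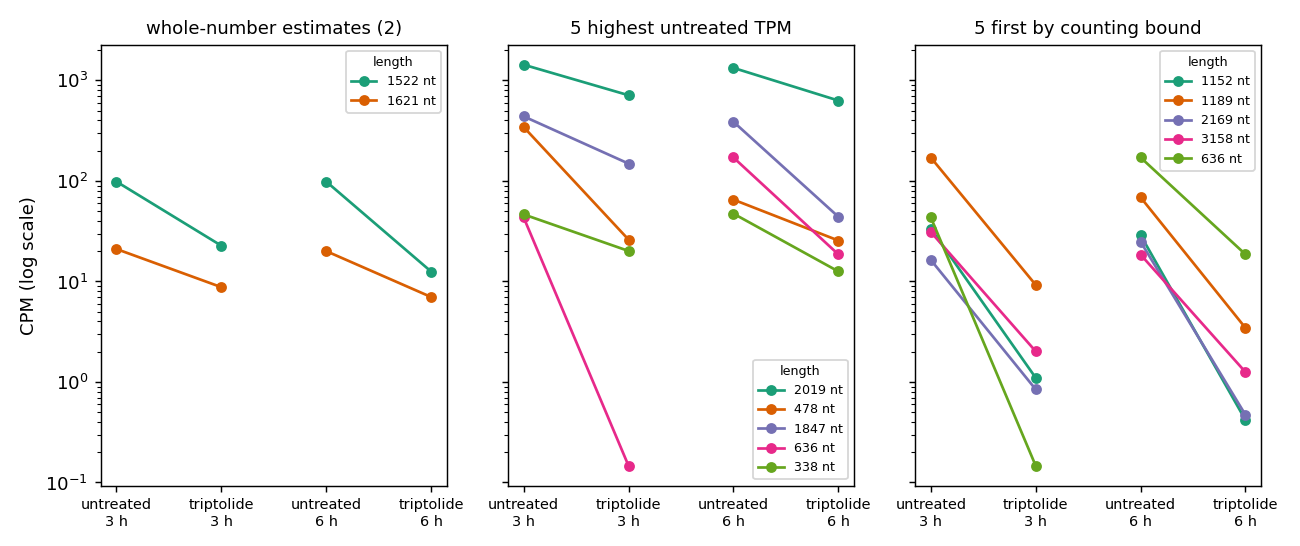
CPM (log axis) in the 4 libraries of the 2 members with whole-number estimates, the 5 members highest in mean untreated TPM and the 5 first by counting bound. Lines join the untreated and treated library of the same time. Colours tell transcripts apart within a panel, whose legend gives their lengths. The 1522 nt transcript is at 98.5 CPM in both untreated libraries, while the 478 nt and 636 nt transcripts have untreated values 5.28-fold and 3.94-fold apart.

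Most members were lower again at 6 h. The 6 h log2 ratio lay below the 3 h ratio in 263 of 283 members (92.9%), against 63.5% of eligible transcripts, and by 1 or more in 168 (59.4%, against 13.6%). The median difference was -1.17 (interval -1.26 to -1.05) in members and -0.20 over the eligible transcripts. The 6 h ratio lay above the 3 h ratio by 1 or more in 3 members (1.06%, against 2.51%). A counting interval of the difference wholly below 0 was found for 237 members (83.7%, against 49.9%). Scaling with TMM factors raised every 3 h ratio by 0.04 and every 6 h ratio by 0.22, and brought the median difference to -1.02 in the 243 members that then met the rule and the median of eligible transcripts to -0.0011 at 6 h. Both ratios entered the rule, so these counts describe the chosen set.

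The course after 3 h divided the members. In 40 members the 6 h log2 ratio stood at least 2 below the 3 h one, and their median log2 ratios were -1.35 at 3 h and -3.94 at 6 h. In 128 members it stood 1 to 2 below it, with medians of -1.25 and -2.77. In 95 members it stood less than 1 below it, with medians of -1.23 and -1.88. In 20 members it was no lower, with medians of -1.49 at 3 h and -1.29 at 6 h. In 6 of these 20 the counting interval of the difference lay above 0. The 4 sets were formed by the difference of the 6 h and 3 h ratios. They differed little in their 3 h medians and much at 6 h. Their median lengths, which did not form them, were 2805.5, 2976.5, 2827 and 3032.5 nt in the same order. The untreated libraries were a median of 1.17-fold, 1.11-fold, 1.14-fold and 1.29-fold apart. Both untreated values enter the difference that formed the sets, so these distances are partly set by the division.

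**Figure D3:**
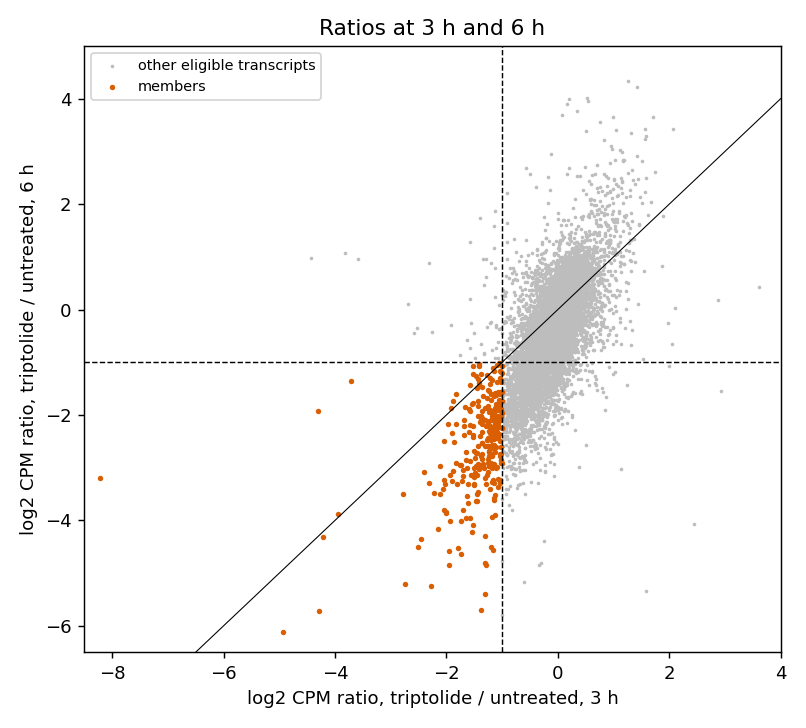
Log2 CPM ratio of triptolide to untreated at 3 h (horizontal) and 6 h (vertical) for the eligible transcripts, members in orange; dashed lines mark the limits of -1 and the solid line marks equal ratios, and 5 points lie outside the axes. Of 283 members, 263 lie below the line of equal ratios, and the members adjoin a dense group of transcripts just outside the 3 h limit.

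Over time without the drug, members lay on both sides of no change. Their median log2 ratio of untreated 6 h to untreated 3 h was 0.0040 (interval -0.0497 to 0.0346), against -0.0093 over the eligible transcripts. Of the members, 6 were at least 2-fold lower at 6 h (2.12%, against 0.56% of eligible transcripts), and 9 at least 2-fold higher (3.18%, against 0.624%). The untreated libraries were within 1.2-fold for 179 members (63.3%, against 70.8%), so the members' untreated values were apart somewhat more often than those of eligible transcripts. With triptolide the median log2 ratio of 6 h to 3 h was -1.16 (interval -1.25 to -1.04), against -0.20 over the eligible transcripts. Over the 2036 transcripts lower at 6 h but not at 3 h it was -1.05 (interval -1.08 to -1.03). Between the treated libraries 163 members were at least 2-fold lower at 6 h (57.6%, against 12.8% of eligible transcripts). In the same pair 1 member was at least 2-fold higher (0.353%, against 2.12%). That 1 is the 636 nt transcript with 4 reads in the treated 3 h library. All of these libraries entered the choice of the members, so the treated and untreated time ratios are given side by side as a description.

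**Figure D4:**
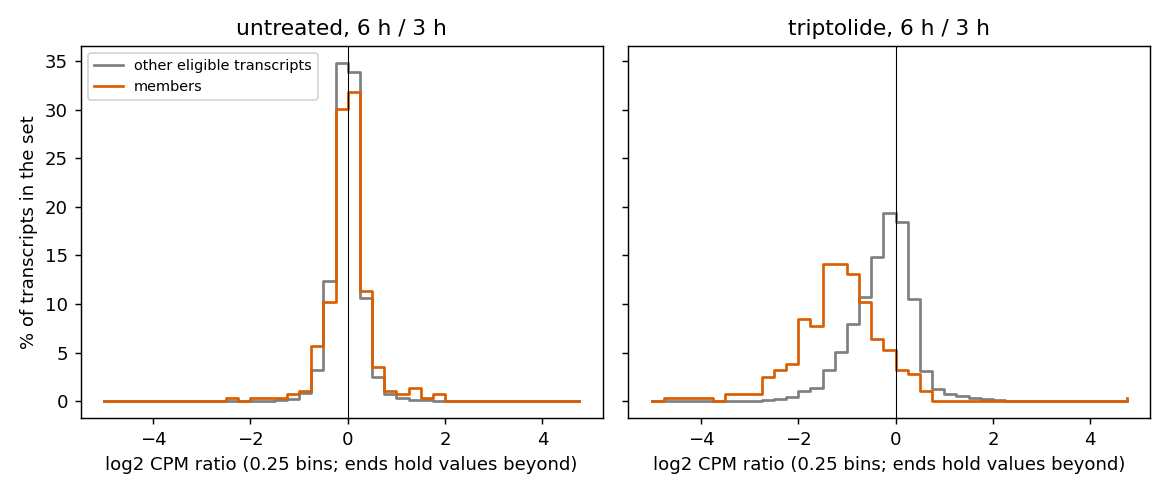
Distribution of log2 CPM ratios of 6 h to 3 h, as the share of transcripts in each 0.25-wide bin, untreated (left) and with triptolide (right), for members (orange) and the other eligible transcripts (grey). The members' medians are 0.0040 untreated and -1.16 with triptolide.

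The order of the 4 values in a member is largely set by the rule and is given as a description. In all 283 members both treated libraries lay below both untreated ones, which held for 38.2% of eligible transcripts. In 211 members (74.6%) the higher treated value was also at least 2-fold below the lower untreated value. The rule is met by any transcript with this property, which 1.94% of eligible transcripts had. Among the 179 members with untreated libraries within 1.2-fold this was so for 149, and the median log2 ratios were -1.25 at 3 h and -2.50 at 6 h. Among the 15 members with untreated libraries at least 2-fold apart it was so for 9, with medians of -1.58 and -2.85. In between, the 71 members 1.2-fold to 1.5-fold apart had medians of -1.29 and -2.33, and the 18 members 1.5-fold to 2-fold apart had -1.49 and -2.61, so the 6 h medians did not follow the distance between the untreated libraries throughout.

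Length did not enter the rule except through the mean CPM, which counts reads and so admits long transcripts at lower molar levels. The median member was 2912 nt long (interval 2704 to 3106), with a 25th and 75th percentile of 1957 and 4148.5 nt and a range of 338 to 11982 nt. The median over the eligible transcripts was 2615 nt (interval 2569 to 2667), and that over the 2036 transcripts lower at 6 h but not at 3 h was 3323.5 nt (interval 3204 to 3451). Members made up 1.53% of eligible transcripts under 500 nt (5 of 326), 1.24% from 500 to 1000 nt (16 of 1292) and 2.25% from 1000 to 2000 nt (54 of 2395). They made up 3.16% from 2000 to 4000 nt (128 of 4053) and 3.17% from 4000 to 8000 nt (76 of 2398). At 8000 nt or more they made up 0.920% (4 of 435, interval 0.251% to 2.34%). The 2 classes between 2000 and 8000 nt had the highest shares. The intervals of these shares treat transcripts as independent, which they are not, so they are no test of a difference between classes. The interval from 500 to 1000 nt, 0.709% to 2.00%, and that at 8000 nt or more lie below the interval from 2000 to 4000 nt, 2.64% to 3.74%, while those under 500 nt, 0.500% to 3.54%, and from 1000 to 2000 nt, 1.70% to 2.93%, overlap it. Transcripts lower at 6 h alone made up 5.83% of the class under 500 nt, 26.3% of that from 4000 to 8000 nt and 29.9% of the longest class. Within the members, length went with the ratios only weakly, with a Spearman rho of 0.14 at 3 h and 0.02 at 6 h over 283 transcripts. Over the 10899 eligible transcripts, which are not cut off at a limit, rho was -0.17 and -0.30.

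By level, members made up 2.04% of eligible transcripts under 20 CPM in the mean of the untreated libraries (71 of 3474), 3.34% from 20 to 50 CPM (128 of 3836) and 2.73% from 50 to 100 CPM (52 of 1906). Above that they made up 2.02% from 100 to 200 CPM (20 of 992) and 1.74% at 200 CPM or more (12 of 691). The rule itself bars a low untreated mean, the lowest of a member being 13.7 CPM, and the lowest class holds eligible transcripts below that, so its share cannot be set against the others. From 20 CPM upwards the intervals of neighbouring classes overlap, and these too treat transcripts as independent. Per length, the median member had a mean of 13.0 TPM untreated (interval 11.1 to 15.0), against 15.3 TPM (interval 14.9 to 15.8) over the eligible transcripts. The median log2 ratio of the members was -1.19 at 3 h and -2.31 at 6 h in the lowest class of CPM, and -1.40 and -2.75 in the highest.

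**Figure D5:**
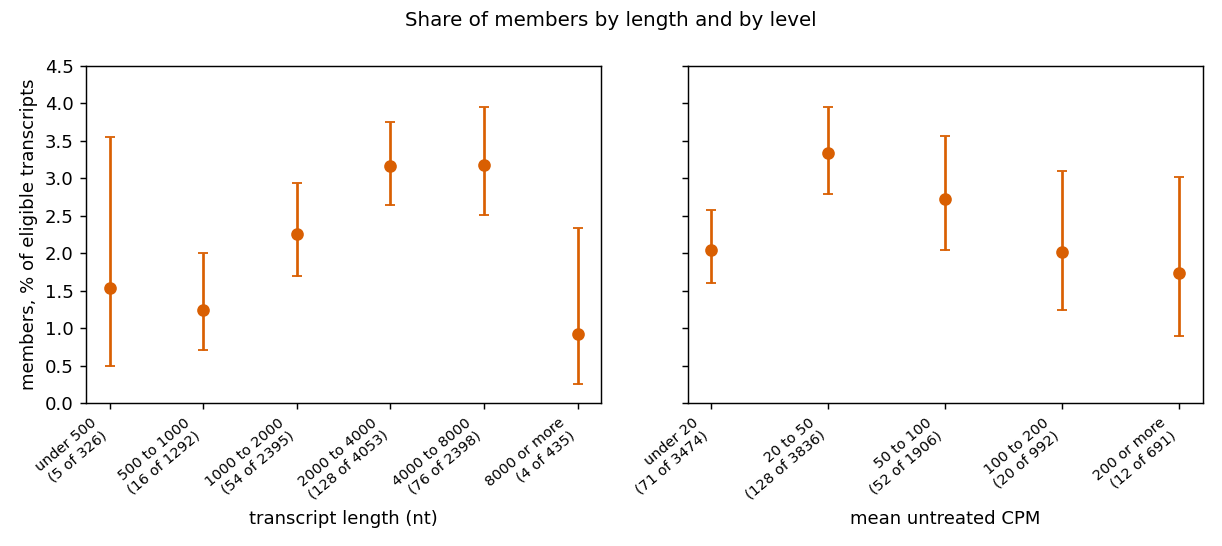
Members as a percentage of eligible transcripts by transcript length (left, nt) and by mean untreated CPM (right), with exact binomial 95% intervals and the counts under each class. The intervals treat transcripts as independent, which they are not. The share is 3.16% and 3.17% between 2000 and 8000 nt and 0.920% at 8000 nt or more.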

How the data were processed

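RNA of 4 libraries was analysed, 1 per group. Per the file headers, the authors' tables hold an estimated read count (the deposited estimated counts), TPM, length and effective length for every transcript, in the layout of the Salmon quantifier. For its version and the transcript set, nothing was given in the sources used here. The submitters' processing notes name SAMtools 1.0.6, Bowtie 1.0.0 and FastQC 0.11.4 and do not say which served the RNA. The deposited estimated counts were taken as unscaled, since their column name gives reads. They are often fractions, as happens when a read that matches several transcripts is shared out. The deposited TPM values sum to 1000000 in each library.

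Counts were rounded and divided by the library sum, and a 0 became 3 reads in ratios. The members and lists were chosen with earlier results of these data known. Intervals are 95%. They are exact conditional binomial (Clopper-Pearson) for ratios and shares, from binomial order statistics for medians, and a normal approximation of 4 counts for differences of log2 ratios. Those of ratios, of their differences and of shares of reads hold counting error and nothing else. Those of medians and of shares of transcripts treat transcripts as independent draws, which they are not. Error in sharing out reads among transcripts is not in any of these intervals, and only 2 of 283 members had whole-number estimates. Reads were not tagged as single molecules. With 1 library per group no model was fitted and no test was made. The procedure was run on simulated independent Poisson counts with the same fall at both times. The simulation had no variation between libraries and no shared reads, so it cannot speak to either.

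The alternatives were edgeR 4.0.16 TMM factors and DESeq2 1.42.0 size factors, both computed where the mean CPM was at least 1, log2(TPM + 0.1), other levels and folds, thinning, and subsets of transcripts. Identifiers were to be given for the first 2 members by counting bound among those with whole-number estimates, and other members by rank of level, fall or length only. Gene lists, cell type markers and sums per gene needed gene names and were not used.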

Additional observations from a re-analysis of the deposited data

How the results depend on the processing

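No paired analysis was possible because each group has 1 library and the groups share only 1 replicate number. A fit of time plus triptolide over the 4 libraries, with 3 h and 6 h in the place of replicates and 1 residual degree of freedom, was not run. Sums per gene were not run, since no table used here pairs transcripts with genes. The number of members moved by over 1.5 times with the level, the fold and the subset. It was 1647 with a minimum of 1 CPM, 47 with a minimum of 50 CPM, 1040 at 1.5-fold, 23 at 4-fold, 181 with counting intervals wholly beyond 2-fold and 2 among whole-number transcripts. With TMM factors it was 243 and with DESeq2 size factors 242, all of them among the 283. In TPM it was 367, which include the 283. Thinned to the smallest total it was 290, of which 265 are members.

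The median log2 ratio at 3 h and at 6 h was -1.40 and -2.32 with a minimum of 1 CPM, -1.69 and -2.25 in the 2 whole-number transcripts, and -1.45 and -2.72 with intervals beyond 2-fold. The median difference of the 6 h and 3 h ratios and the median treated 6 h to 3 h ratio were both -1.02 with TMM factors and both -1.01 with size factors. They were -0.81 and -0.87 with a minimum of 1 CPM, and -0.56 and -0.59 in the 2 whole-number transcripts. The cause was not tested. These medians kept their sign under each alternative run. The untreated 6 h to 3 h median stayed within its interval, which includes 0. Restricting the members to the 179 with untreated libraries within 1.2-fold, an alternative chosen after seeing the data, left the medians within their intervals. A count of 0 set to 1 read changed nothing, since no member was at 0.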

Other observations

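Past the 2-fold limit at 3 h but not at 6 h were 48 eligible transcripts, against 283 members. Their median log2 ratio was -1.32 at 3 h and -0.27 at 6 h (interval -0.43 to 0.46), and in 8 of them the treated 6 h value was higher than the untreated one by 2-fold or more. Their untreated libraries were at least 2-fold apart in 11 of 48 (22.9%), against 15 of 283 members (5.30%). Among eligible transcripts, 0.56% had an untreated 6 h value this far under the 3 h one, and 0.624% this far over it. Both sets were chosen by ratios that hold the untreated values, so the contrast between them is partly set by the choice. The 48 had a median untreated 6 h to 3 h log2 ratio of -0.50 (interval -0.74 to -0.29). Their median length was 1910 nt (interval 1009 to 3154), and the members' median of 2912 nt lies within that interval. A further 1364 transcripts with a mean CPM of 1 to 10 met both ratio limits and are not members.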
